A study of Equus caballus with 2 samples.

Results

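The CCN genes and the genes of the YAP pathway were followed in cultured equine endometrial fibroblasts with and without TGF-β1. The set of 10 genes held the CCN family members *CCN1*, *CCN2*, *CCN3*, *CCN4* and *CCN5*, together with *ANKRD1*, *AMOTL2*, *AJUBA*, *YAP1* and *TEAD1*, out of 21426 genes listed in both libraries. The genes were picked by symbol with their levels in these same libraries already known, so the comparison of TGF-β1 with control describes them and does not test them. The fibroblasts came from the endometrium of 4 mares in the mid-luteal phase with healthy or only mildly fibrotic endometria, and were expanded on plastic before they were grown on collagen-coated hydrogels. Serum was replaced by 0.1% BSA in both groups, and the control group received nothing else, whereas the TGF-β1 group received 10 ng/ml human recombinant TGF-β1 for 24 h. Cells of the 4 mares were pooled within each group and made into 1 droplet library per group, and the ages of these mares were not given in the sources used here. The MFGE8 group of the study was not analysed here.

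CCN proteins are secreted, cysteine-rich proteins of the extracellular matrix that bind integrins and other surface receptors and have been studied widely in fibrosis. YAP1 and its relative TAZ are transcriptional coactivators that do not bind DNA themselves. They enter the nucleus when cells are spread or under tension, bind TEAD factors there, and raise genes such as *CCN1*, *CCN2*, *ANKRD1* and *AMOTL2*, while the kinases of the Hippo pathway keep them in the cytoplasm. Some of these genes, *CCN2* among them, are also known as direct responders to TGF-β.

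The deposited values were counts of unique molecular identifiers (UMIs), in which amplified copies of a transcript are counted once. Filters of 20000 UMIs and 3500 genes as minimum and of 4% mitochondrial UMIs as upper limit left 3865 control cells of 4384 barcodes and 4513 TGF-β1 cells of 5124 barcodes. The median depth of kept cells was 50313 UMIs for control and 43142 UMIs for TGF-β1. The libraries shared 6 cell barcodes, 2 of them among kept cells. The mesenchymal genes *VIM* and *COL1A1* were present in 100% of cells of either library, and *EPCAM*, *PTPRC* and *PECAM1*, which define epithelial, immune and endothelial cells, had between 0 and 9 UMIs per library. The summed level of the 8 fibroblast markers was 17259 and 16212 counts per 1000000 UMIs (CPM) in control and TGF-β1 cells, that of the epithelial list, carried by *KRT7* and *KRT8*, was 134 and 12.3 CPM, and that of the list of smooth muscle and pericyte markers was 4350 and 5401 CPM. Of the 8 fibroblast markers 3 were higher and 5 lower after TGF-β1, with a median log2 ratio of -0.47 and with *PDGFRA* (-1.60) and *THY1* (-1.30) more than 2-fold lower. *ACTA2* carried the higher smooth muscle sum with 3608 and 4745 CPM, while *MYH11*, which defines smooth muscle, was at 42.9 and 25.3 CPM. In the same list *DES* was at 646 and 569 CPM and *RGS5* at 51.7 and 61.1 CPM. The sums were 58.7 and 35.3 CPM for 9 cycling markers, 42.7 and 43.1 CPM for immune markers, nearly all of it *CD68*, and 0.926 and 0.610 CPM for endothelial markers. The study told the mares apart by genotype in the reads, a step not repeated here, so each group is 1 value and differences are given without a test. Treatment and library preparation cannot be told apart. A different mix of mares in the 2 libraries would not be seen. All intervals below are exact 95% intervals that cover counting error only, and leave out the variation between mares and between cultures.

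*ANKRD1* (ENSECAG00000016983), which encodes a muscle ankyrin repeat protein of the nucleus and the sarcomere, differed most of the 10 genes between the libraries. It had 8776 control and 70573 TGF-β1 UMIs, which is 41.7 and 321 CPM. The TGF-β1 level was 7.70-fold the control level, a log2 ratio of 2.95 (2.91 to 2.98), the tenth largest ratio toward TGF-β1 among the 7658 genes whose mean reached 10 CPM. *ANKRD2*, a paralog of the same small family, stood at 1.29 and 1.82 CPM, with a log2 ratio of 0.49.

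Within the CCN family the genes went different ways. *CCN2* (ENSECAG00000016610), which encodes the connective tissue growth factor, had 45590 and 85504 UMIs, or 217 CPM in control and 389 CPM in TGF-β1 cells, a log2 ratio of 0.85 (0.83 to 0.86). *CCN1* (ENSECAG00000024993), a close relative and also a standard YAP target, had 274 and 278 CPM and a log2 ratio of 0.02 (0.0021 to 0.035). With the mean of per-cell CPM that ratio was -0.0063, so the level of *CCN1* hardly differed where that of *CCN2* was higher. *CCN5* (ENSECAG00000014566), the member that lacks the C-terminal cystine knot domain of the others, was the only one of these 5 CCN genes with a lower level after TGF-β1. It had 56957 and 29139 UMIs, or 271 CPM in control and 133 CPM in TGF-β1 cells, a log2 ratio of -1.03 (-1.05 to -1.01).

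The remaining CCN genes were sparse. *CCN3* (ENSECAG00000023039), first known as an oncogene of nephroblastoma, had 1061 and 2535 UMIs, or 5.04 and 11.5 CPM, with a log2 ratio of 1.19 (1.09 to 1.30). *CCN4* (ENSECAG00000025050), which is known as a target of Wnt signalling, had 727 and 1791 UMIs, or 3.45 and 8.15 CPM, with a log2 ratio of 1.24 (1.11 to 1.37). Both were higher in the TGF-β1 library but lay below the minimum of 10 CPM at which genes were counted. *CCN6*, the last member of the family, had 9 UMIs in each library and was at the limit of what this depth shows.

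The regulators and the feedback genes of the pathway were level or somewhat lower after TGF-β1. *YAP1* (ENSECAG00000008660), the coactivator, had 92.7 and 95.9 CPM, a log2 ratio of 0.05 (0.02 to 0.08). *TEAD1* (ENSECAG00000008332), the most studied of its DNA-binding partners, had 268 and 220 CPM, a log2 ratio of -0.29 (-0.30 to -0.27). *AMOTL2* (ENSECAG00000009818), which encodes an angiomotin that binds YAP and is itself a YAP target, had 103 and 85.6 CPM, a log2 ratio of -0.27 (-0.30 to -0.24). *AJUBA* (ENSECAG00000009971), a LIM protein that binds and inhibits LATS kinases, had 27.5 and 21.0 CPM, a log2 ratio of -0.39 (-0.45 to -0.33). None of these 4 genes differed by 1.5-fold, a limit that 12.7% of genes passed in either direction.

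Of the 10 genes, 8 reached a mean of 10 CPM, and of these *ANKRD1* was more than 2-fold higher and *CCN5* more than 2-fold lower after TGF-β1. Among all 7658 genes at that level, 4.43% were more than 2-fold apart, 2.30% higher and 2.13% lower. With a minimum of 1 CPM all 10 genes counted, 3 of them more than 2-fold higher and 1 lower, beside 3.45% and 3.46% of 12116 genes (6.91% apart). With a limit of 1.5-fold *CCN2* joined *ANKRD1* among the 8 genes, beside 6.19% of genes higher. Since the genes were picked from this comparison, nothing follows from these counts about the pathway. With the share of each rebuilt cluster of cells set equal in both libraries the log2 ratio of *CCN5* was -0.89, no longer past 2-fold. The part of cell composition in the ratio of *CCN5* was not tested.

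**Figure D1:**
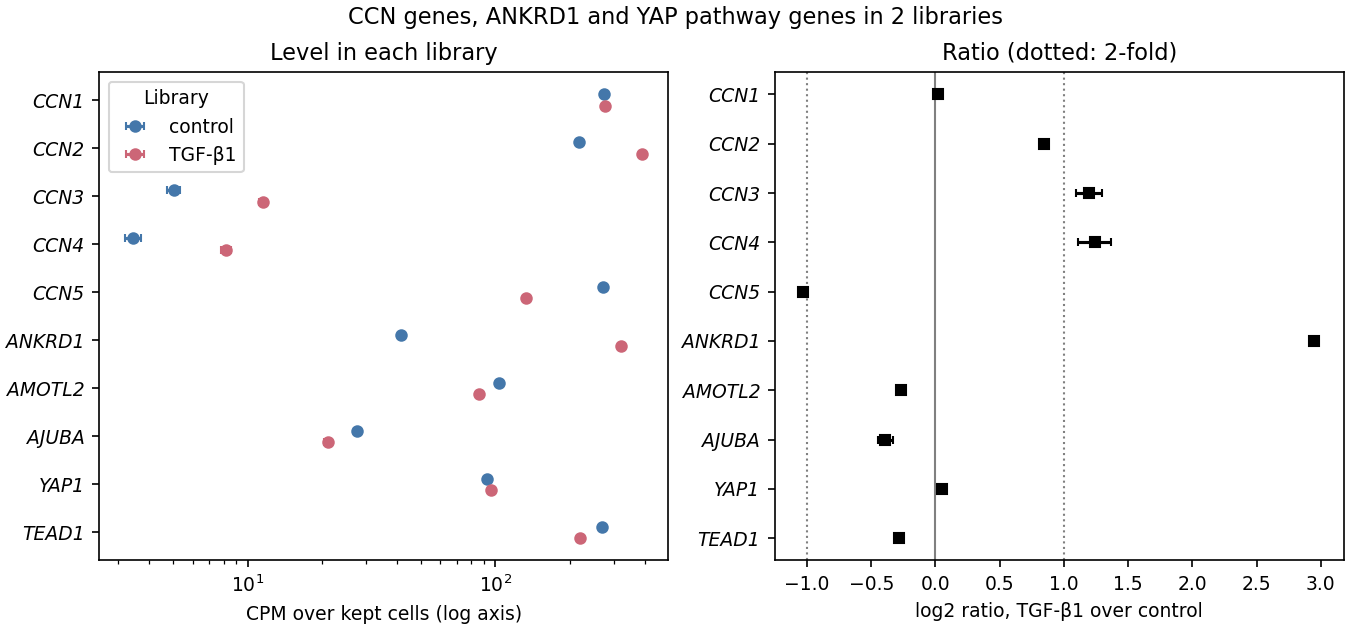
Levels of the 10 genes in CPM on a log axis for each library (left) and TGF-β1 over control as a log2 ratio (right), with exact 95% intervals for counting error and 1 library per group. *ANKRD1* stands far to the right at 2.95, *CCN5* just past 2-fold lower at -1.03, and *CCN1* and *YAP1* lie beside 0.

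The same genes were then followed cell by cell. All kept cells were cut to 20000 randomly drawn UMIs, so that deeper cells would not show more genes, and the share of cells with at least 1 UMI was taken. The share with *ANKRD1* was 21.9% (20.6% to 23.2%) in control and 62.8% (61.3% to 64.2%) after TGF-β1, against 39.0% and 73.2% without thinning. The cells that did contain it also held more, with a mean of 3.33 UMIs per cell in control and 9.33 in TGF-β1. Both a larger share of cells and a larger amount per such cell thus made up the difference in its total. There was no cell type in these cultures that should lack these genes, so the share that free RNA in the droplets would give could not be measured.

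*CCN2* was present in 75.3% of cells without and 92.0% with TGF-β1, with a mean of 5.54 and 8.24 UMIs per cell that contained it. *CCN5* went the other way, from 86.8% of control cells to 65.9% after TGF-β1, with 6.07 and 3.97 UMIs. *CCN1* was found in 90.9% and 93.2% of cells. So after TGF-β1 *CCN2* was in more and *CCN5* in fewer cells, while *CCN1* was in nearly all of them in both libraries. *CCN3* and *CCN4* were found in minorities, 3.44% and 6.49% of cells for *CCN3* and 5.72% and 13.1% for *CCN4*, and cells with *CCN4* held little more than 1 UMI of it. *CCN6* was found in 4 cells of each library. Among the regulators, *YAP1* was found in 78.0% and 80.4%, *TEAD1* in 96.5% and 94.8%, *AMOTL2* in 79.6% and 74.4%, and *AJUBA* in 41.6% and 32.3%, control first. Without thinning the shares, control first, were 86.5% and 96.1% for *CCN2*, 94.3% and 77.9% for *CCN5*, 95.6% and 97.3% for *CCN1*, 6.36% and 9.28% for *CCN3* and 15.0% and 26.1% for *CCN4*. They were 94.6% and 94.2% for *YAP1*, 99.5% and 98.4% for *TEAD1*, 94.6% and 90.8% for *AMOTL2*, and 70.9% and 58.8% for *AJUBA*. At equal depth, no share of these regulators differed by more than 10 percentage points.

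**Figure D2:**
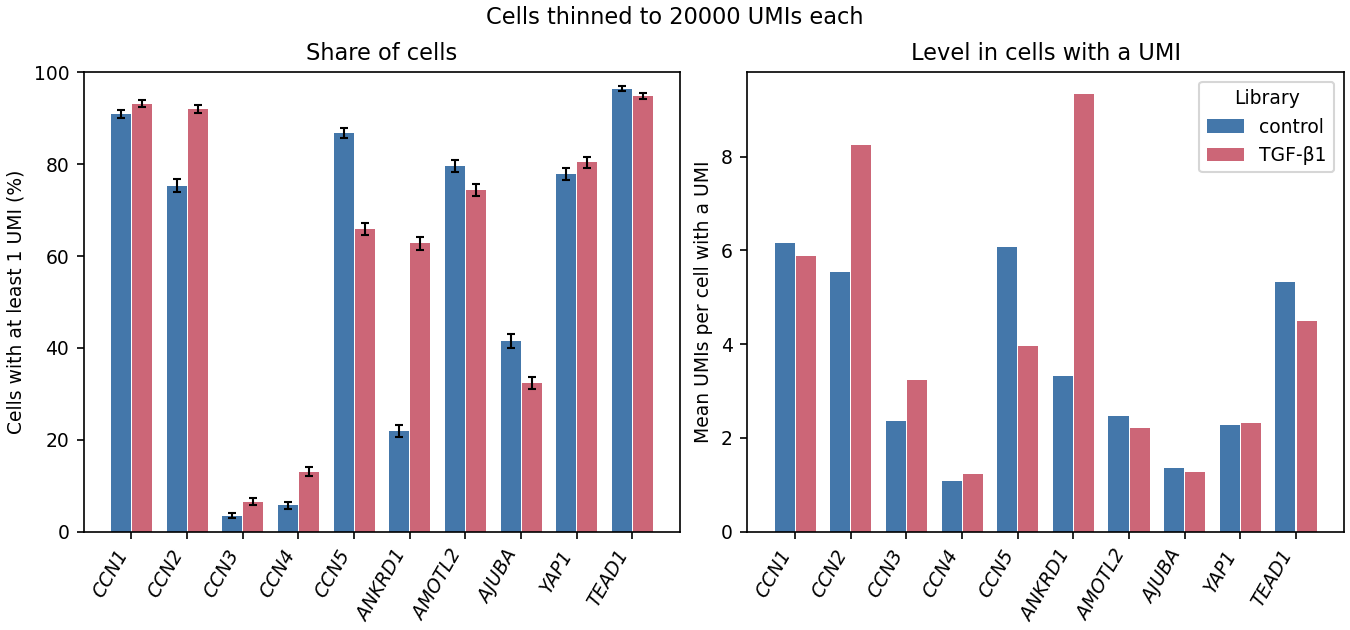
Share of cells with at least 1 UMI of each gene with exact 95% binomial intervals (left) and mean UMIs per cell among the cells with a UMI, without error bars (right), for 3865 control and 4513 TGF-β1 cells thinned to 20000 UMIs. For *ANKRD1* both panels are higher in TGF-β1 cells (21.9% to 62.8% of cells, 3.33 to 9.33 UMIs), and for *CCN5* both are lower.

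Although most TGF-β1 cells contained *ANKRD1*, its UMIs were spread unevenly. In the control library the 10% of cells with the most held 83.7% of its UMIs, and before thinning 10 cells held 15.1%. In the TGF-β1 library the top 10% of cells held 55.3%, the median cell had 1 UMI, the 90th percentile was 17 and the highest cell had 111. If 1 cell of each library was drawn at random, the TGF-β1 cell was the higher in 73.7% of pairs, ties split evenly. The corresponding share was 67.3% for *CCN2*, 50.7% for *CCN1* and 32.1% for *CCN5*. So the cells of both libraries overlapped for every gene, *ANKRD1* included.

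Spread beyond counting noise was measured as the squared coefficient of variation above that of Poisson counts, whose median over the 7658 genes was 0.176 in control and 0.157 in TGF-β1 cells. It was 16.3 for *ANKRD1* in control cells and 3.33 in TGF-β1 cells. *CCN2* likewise was more even in TGF-β1 cells, at 1.55 and 0.869, while *CCN5* was less even, at 0.893 and 1.49. *YAP1* and *TEAD1* stayed between 0.22 and 0.29 in both libraries, with 60.9% to 64.9% of genes below them. *CCN3* was the most uneven, at 52.6 and 65.7. A few cells carried it, as 10 cells held 36.2% of its control UMIs and 10 cells held 29.2% of its TGF-β1 UMIs. Without those cells its log2 ratio was 1.34, and that of *ANKRD1* without its own 10 highest cells in each library was 3.12.

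Cells were clustered again, with these 10 genes left out of the variable genes, to ask whether a difference was shared by all kinds of cell in the culture. This gave 8 clusters with at least 50 cells of each library, which are not the clusters of the study. *ANKRD1* was more than 2-fold higher after TGF-β1 in 8 of 8 clusters, with log2 ratios from 2.44 to 3.99, where 3.62% to 6.49% of the genes at 10 CPM or more were more than 2-fold apart. It had its highest level in both libraries in cluster 3, led by *SPP1*, *MATK*, *KRT7* and *KRT8*, with 103 CPM in control and 720 CPM in TGF-β1 cells. The lowest level was in cluster 7, led by *CA4* and *KRT1*, with 6.50 and 103 CPM. The cluster with the lowest level after TGF-β1 thus stood where the highest cluster stood without it.

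*CCN2* was higher in 8 of 8 clusters (0.32 to 1.10), more than 2-fold in clusters 3 and 5, and *CCN5* was lower in 8 of 8 (-1.23 to -0.57), more than 2-fold in 5 of them. *CCN5* was also highest in cluster 3, with 536 CPM in control and 330 CPM in TGF-β1 cells, and *CCN5* is itself among the 10 leading genes of that cluster. The control cells with a UMI of *KRT8* had 1.52 times the *CCN5* UMIs of those without. Cluster 3 held 723 control and 596 TGF-β1 cells, and its keratins were part of the epithelial list whose sum was lower after TGF-β1. Within that cluster *CCN5* was lower as well, with a log2 ratio of -0.70.

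*TEAD1* was lower in 8 of 8 clusters (-0.72 to -0.18), and *AMOTL2* and *AJUBA* were lower in 7 of 8. *CCN1* and *YAP1* were higher in 4 and lower in 4 clusters, within -0.18 to 0.17 for *CCN1* and -0.13 to 0.27 for *YAP1*. *CCN4* was higher in 8 of 8, although the interval reached 0 in clusters 3 and 7. *CCN3* was higher in 8 of 8 as well, yet its ratio of 3.31 in cluster 7 came from 1 cell that held 150 of the 159 TGF-β1 UMIs. The cells marked as cycling, 87 control and 84 TGF-β1 cells, had log2 ratios of 3.04 for *ANKRD1*, 1.03 for *CCN2* and -1.19 for *CCN5*.

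**Figure D3:**
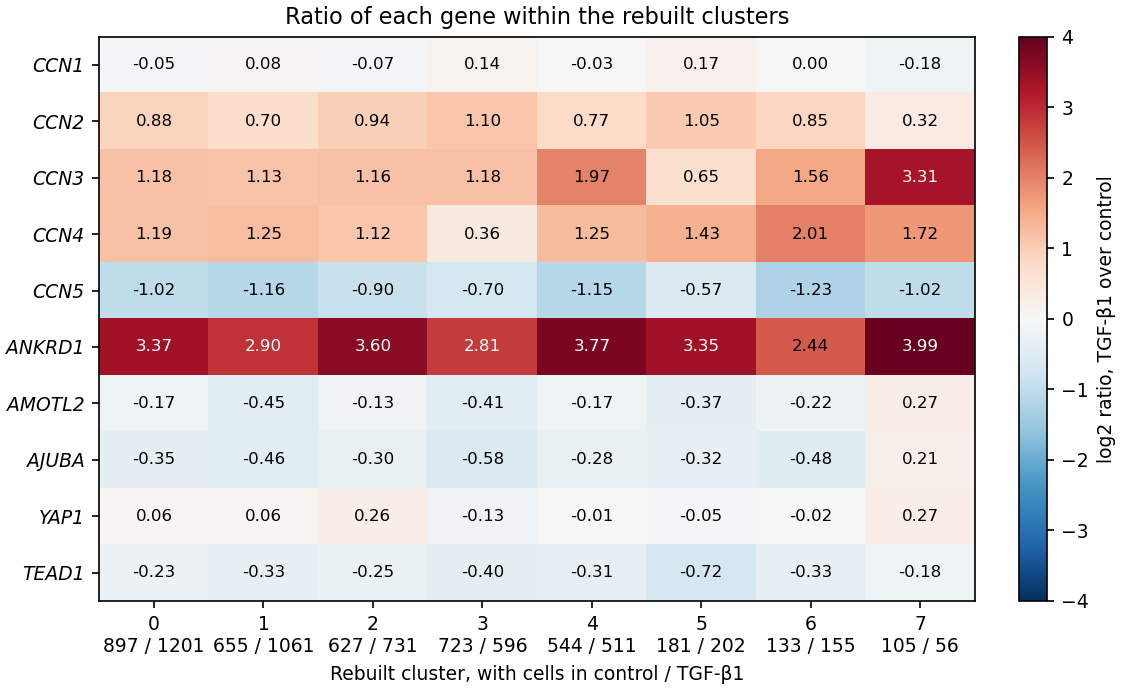
Log2 ratio of TGF-β1 over control for each gene (rows) within 8 rebuilt clusters (columns, with the number of control and TGF-β1 cells), coloured from -4 to 4. The row of *ANKRD1* is red throughout (2.44 to 3.99), that of *CCN5* blue throughout (-1.23 to -0.57), and those of *CCN1* and *YAP1* change sign between clusters.

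Co-detection was compared with the number of cells expected from the product of the 2 shares, for 45 pairs of genes. Pairs with at least 20 expected cells were counted, which were 44 pairs in control and 45 in TGF-β1 cells. The ratio of observed to expected cells ranged from 0.893 to 1.99 in control and from 0.935 to 1.35 in TGF-β1 cells. Only 2 pairs in each library were over 1.2, and 0 pairs were under 0.8. These counts were partly fixed in advance, since the ratio cannot pass the inverse of the larger share. Pairs with *CCN1* or *TEAD1*, or with *CCN5* in control and *CCN2* in TGF-β1 cells, could not pass 1.2. Pairs of such genes could not fall under 0.8 either, so the counts do not show that detection was independent. *CCN3* with *ANKRD1* was over 1.2 in both libraries. This pair was found together in 58 control cells where 29.1 were expected (ratio 1.99, 1.52 to 2.57), and in 248 TGF-β1 cells where 184 were expected (1.35, 1.19 to 1.52). With the expected number summed over the rebuilt clusters the ratios were 1.75 and 1.26, and without the deepest 10% of cells they were 2.00 and 1.39.

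The other pairs over 1.2 were *CCN4* with *ANKRD1* in control cells at 1.28 (0.98 to 1.64), which was 1.198 without the deepest 10% of cells and 1.06 with thinning to 10000 UMIs, and *CCN3* with *CCN5* in TGF-β1 cells at 1.23 (1.08 to 1.39). *CCN2* with *ANKRD1* reached 1.13 in control cells, of which 75.3% contained *CCN2*. In TGF-β1 cells the pair was at 1.03, and there *CCN2* was found in 92.0% of cells, which leaves little room for a higher value. Depth moved with *ANKRD1* even after thinning. The third of control cells with the most UMIs contained it in 30.9% of cells and the other cells in 17.4%, and the part of cell size in the co-detection was not tested.

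Amounts were also compared between the cells with and without *ANKRD1*. In control cells that contained *ANKRD1*, *CCN2* had a mean of 5.67 UMIs against 3.75 in those without, and in TGF-β1 cells 8.87 against 5.42. *CCN5*, although lower after TGF-β1, was also higher in the cells that contained *ANKRD1*, with 6.64 against 4.88 UMIs in control and 3.12 against 1.77 in TGF-β1 cells. Thus *ANKRD1* and *CCN5* differed in opposite directions between the libraries and went together among the cells of each library. *YAP1* had 1.77 against 1.78 and 1.82 against 1.93 UMIs, and *TEAD1* 5.13 against 5.14 and 4.32 against 4.16, so that cells with and without *ANKRD1* hardly differed in the mRNA of the coactivator and its partner. The complement gene *CFD* went the opposite way, with 2.01 against 6.06 UMIs in control and 0.631 against 0.942 in TGF-β1 cells.

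The genes closest to each member across cells were sought by Spearman's rho over 3865 control and 4513 TGF-β1 cells at equal depth. The cells of a library share its preparation, and the values are descriptions. For *ANKRD1* they were *TPM1*, *INHBA*, *ACTA2*, *CALD1* and *C1QTNF3* in control cells, all at 0.25, and *INHBA* (0.38), *ACTA2* (0.35), *CCN2* (0.34), *TPM1* (0.33) and *ACTN1* (0.31) in TGF-β1 cells. *TPM1*, *ACTA2*, *CALD1* and *ACTN1* encode tropomyosin, smooth muscle actin, caldesmon and an actinin of the contractile apparatus, and *INHBA* encodes the subunit of activin A. *CCN2* was likewise closest to *TPM1* (0.32) and *ACTA2* (0.32) in control and to *INHBA* (0.36) and *ANKRD1* (0.34) in TGF-β1 cells. For *CCN1* the first gene was *CCN2* in both libraries, at 0.28 and 0.32.

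*CCN5* was closest to *ANXA1* (0.38), *IGFBP2* (0.33), *CTHRC1* (0.31), the myosin light chain gene *MYL9* (0.29) and *FOXS1* (0.28) in control cells. In TGF-β1 cells it was closest to *IGFBP2* (0.31), *CTHRC1* (0.28), *RPL3L* (0.28), *ANKRD1* (0.26) and *RPS3* (0.25). *TEAD1* was closest to the calcium channel gene *CACNA1C*, at 0.40 and 0.39, with the cytolinker gene *DST* among the 5 closest in both libraries. *YAP1* was closest to *FNDC3B*, at 0.24 and 0.26, and *AMOTL2* to *MYH9* (0.22) in control and *COL1A1* (0.22) in TGF-β1 cells. The highest value for *AJUBA* was 0.10, too weak in such sparse counts to name a neighbour. *ANKRD1* with *YAP1* gave 0.00034 in control and -0.04 in TGF-β1 cells, and *ANKRD1* with *TEAD1* gave -0.01 and 0.01.

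**Figure D4:**
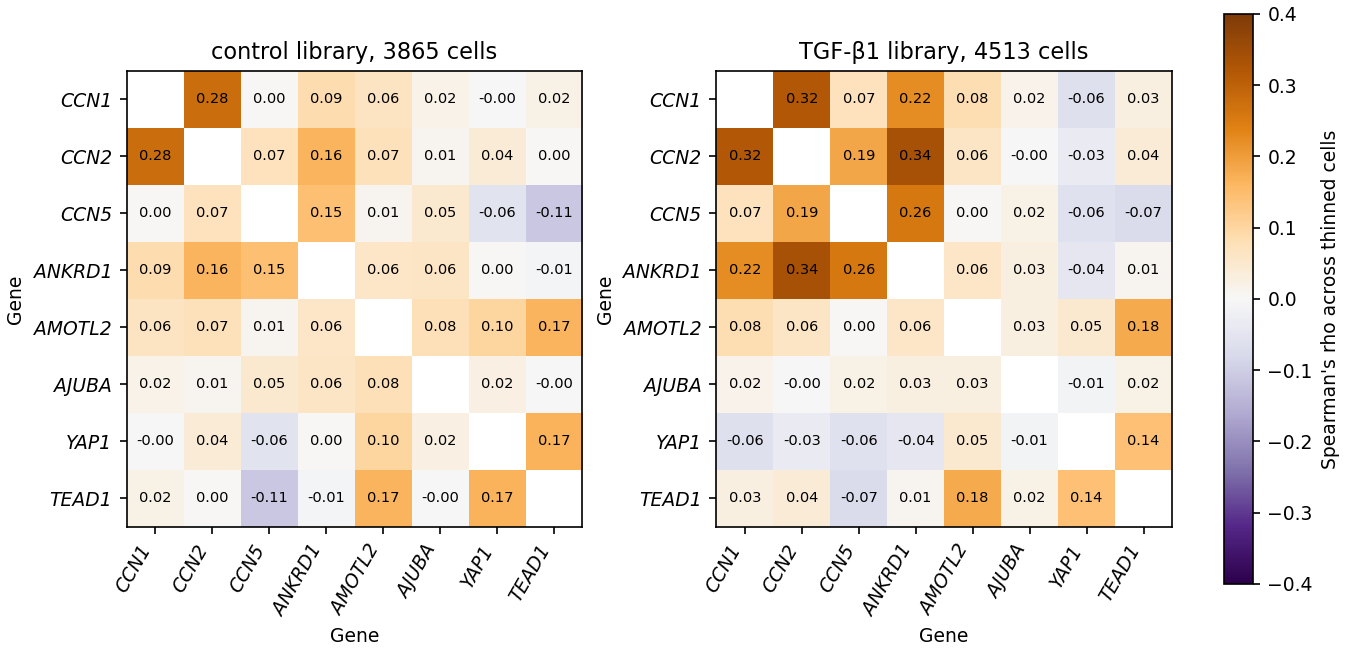
Spearman's rho across thinned cells between the 8 genes found in at least 20% of cells of both libraries, for the control library (left, 3865 cells) and the TGF-β1 library (right, 4513 cells). *CCN2* with *ANKRD1* is 0.16 in control and 0.34 in TGF-β1 cells, *CCN1* with *CCN2* is 0.28 and 0.32, and *YAP1* with *ANKRD1* lies at about 0 in both.

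The same relation was described by amounts, which adds no independent support since *ACTA2* was already among the closest genes. In the 10% of cells with the highest sum of *ACTA2*, *TAGLN* and *CNN1*, *ANKRD1* had a mean of 2.24 UMIs against 0.557 in the other control cells, and 14.1 against 4.93 in TGF-β1 cells. *CCN2* was 2.06 and 1.93 times as high in these cells and *CCN3* 9.27 and 8.23 times. The shares of cells with *CCN3* were 12.2% against 2.45% and 18.4% against 5.15%. *CCN4* was lower in them, at 0.71 and 0.60 times. *YAP1* was lower too, at 0.84 and 0.74 times, and so was *TEAD1*, at 0.78 and 0.79 times. In a cell of fixed depth more UMIs of these 3 genes leave fewer for all others, and the part of this was not tested.

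Genes of the pathway outside the set were taken from lists drawn up with results of these data known. Of 26 other Hippo pathway genes whose mean reached 1 CPM, 14 were higher and 12 lower after TGF-β1, with a median log2 ratio of 0.0091. Over all 12116 genes at that level 5897 were higher, the median was -0.01, and 3.45% were more than 2-fold higher and 3.46% more than 2-fold lower. The coactivator gene *WWTR1*, which encodes TAZ, had 89.6 and 86.5 CPM (-0.05), and the kinase gene *LATS2* had 82.3 and 66.0 CPM (-0.32). *TEAD4* had 19.7 and 14.6 CPM (-0.43), and *VGLL4*, whose protein competes with YAP for TEAD, had 86.9 and 125 CPM (0.53). The next highest were the phosphatase gene *PTPN14* (23.8 and 29.9 CPM, 0.33) and *AMOTL1* (14.1 and 17.3 CPM, 0.30), an angiomotin with a ratio of opposite sign to that of *AMOTL2*. A single Hippo gene was more than 2-fold apart. This was *AMOT*, the angiomotin that gave its family the name, with 13.1 and 3.52 CPM (-1.90), and it is named after its value was seen because its mean was below 10 CPM.

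Of 16 other YAP and TAZ target genes, 11 were higher and 5 lower, with a median of 0.17, and 1 was more than 2-fold higher, beside 3.45% of all genes. That gene was *IGFBP3*, a binding protein of insulin-like growth factors, with 3.69 and 108 CPM (4.87). The lowest were *GADD45A* (-0.70), the receptor tyrosine kinase gene *AXL* (-0.54) and *MYOF* (-0.46). The targets thus spread from -0.70 to 4.87 and did not share 1 direction.

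Genes of the contractile apparatus respond to SRF and its actin-sensing coactivators. They were listed together with the genes of SRF and of these coactivators, which were higher as well. Of these 18 genes 14 were higher and 4 lower, with a median of 0.29. Over all genes 5897 of 12116 were higher and 3.45% were more than 2-fold higher. In the list 3 genes were more than 2-fold higher. These were *ACTG2* (1.47), *TPM1* (1.26) and *CNN1* (1.23), while *FLNA* (-0.11), *TGFB1I1* (-0.10) and *MYL9* (-0.02) were lowest. Of the 15 measured genes of a list of TGF-β responders 15 had a ratio above 0, although the interval of *SMAD6* (0.02, -0.12 to 0.17) held 0, with a median of 0.55, from *IL11* (3.73), *TGFBI* (2.32) and *PMEPA1* (2.13) at the top to *COL1A1* (0.19) and *LTBP2* (0.10) among the lowest. Of 8 genes for receptors of CCN proteins, 6 were higher and 2 lower, with a median of 0.23. The integrin genes *ITGB3* (6.31 and 16.6 CPM, 1.39), *ITGA5* (63.0 and 126 CPM, 1.00) and *ITGB5* (69.7 and 122 CPM, 0.81) were higher in the TGF-β1 library, and the heparan sulfate proteoglycan gene *SDC4* was lower (34.8 and 12.1 CPM, -1.52). *LRP1* (-0.07) and *LRP6* (0.08) were level.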

How the data were processed

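The authors deposited UMI counts per gene and cell barcode for 2 droplet libraries, made with Cell Ranger against EquCab3.0 and Ensembl 109. Version 7.1.0 is named in the methods, and 8.0.1 in the headers. The counts were not normalized or filtered beyond the calling of cells. The members and gene lists were chosen with earlier results of these data known.

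UMIs of kept cells were summed per library and scaled to CPM in Python 3.11.15 (numpy 2.4.6, scipy 1.17.1, pandas 2.3.3), and ratios (log2 of TGF-β1 CPM over control CPM) carry no pseudocount. Intervals are exact (Clopper-Pearson). Totals of 210497250 and 219731144 kept UMIs make them narrow for abundant genes. Clusters were rebuilt in Seurat 5.3.0 in R 4.3.3 (2000 variable genes, 30 dimensions, canonical correlation integration, resolution 0.5). The study removed doublets and assigned mares by genotype, and neither was repeated. Named genes were drawn from the members, *CCN6* and defining markers. The rule also took the 3 highest and 3 lowest genes of each list among those reaching 10 CPM, and the 5 closest genes by Spearman's rho. Not every such marker or closest gene is printed. Outside this rule, *AMOT*, *SMAD6*, *ANKRD2*, *WWTR1*, *CFD*, *AREG*, *VCAM1* and the leading genes of clusters are named after their values were seen. A gene that the rule names is not reported here. The symbols *TEAD3*, *FOXF2*, *TGFB2*, *ITGAV*, *MKI67*, *KRT18*, *KRT19* and *CD14* were not matched to a single row. Figures were drawn in matplotlib 3.10.9.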

Additional observations from a re-analysis of the deposited data

Results flagged for a closer look

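In 3 genes the rebuilt clusters pointed in opposite directions after TGF-β1. *CCN1* had a log2 ratio of 0.167 in cluster 5 and of -0.177 in cluster 7, *AMOTL2* one of 0.275 in cluster 7 and of -0.455 in cluster 1, and *YAP1* one of 0.267 in cluster 7 and of -0.125 in cluster 3. The counting intervals of these values did not reach 0. The difference between clusters was not tested, since each cluster was rebuilt from the data and holds cells of 1 library per group. Cluster 7, with 105 control and 56 TGF-β1 cells, is the smallest and gave 1 of the extremes for each gene.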

How the results depend on the processing

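Of 184 alternatives over all results, 162 stayed within counting error (or 1.5 times, for counts), 21 moved further and 1 member's ratio changed sign, that of *CCN1* with the mean of per-cell CPM (-0.006301). The Hippo median was followed here over 30 genes with the members included, and was 0.00076. That median also changed sign in 5 alternatives, down to -0.0075 with the median-of-ratios factor, and has no direction. With a minimum of 1 CPM, 3 members were more than 2-fold higher and 837 genes more than 2-fold apart, and with a limit of 1.5-fold 2 members and 970 genes, beside 1 and 339. With equal cluster shares 0 members were more than 2-fold lower. The SRF median was 0.328 with the mean of per-cell CPM, and the receptor median 0.3666 with at least 10 CPM. Control pairs over 1.2 were 0 with thinning to 10000 UMIs, where *CCN3* with *ANKRD1*, at 1.84 (1.19 to 2.71), had fewer than 20 expected cells. They were 4 with at least 2 UMIs (*CCN2*-*CCN3*, *CCN2*-*ANKRD1*, *CCN3*-*CCN5* and *ANKRD1*-*AJUBA*), neither of the 2 pairs of the report among them, as both had fewer than 20 expected cells. The genes more uneven after TGF-β1 were 3, and 1 with thinning to 10000 UMIs, for which the cause was not tested. Without integration only 1 cluster held enough cells of both libraries. That alternative is counted among the 162, but it cannot show whether clusters went the same way. The choice to leave out the 10 highest cells was made after seeing the data. No paired analysis was possible because cells were not assigned to mares here, a step the study based on genotypes in the reads, and with 1 library per group no replicate could be left out. Depth limits *CCN3*, *CCN4* and *CCN6*.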

Other observations

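All 10 members were found together in 2 control and 10 TGF-β1 cells at equal depth, and the most frequent number of members per cell was 6 in both libraries. At least 7 members were more often found in TGF-β1 cells, with 27.9% of cells at 7 and 12.1% at 8, against 22.1% and 6.26% of control cells. *IGFBP3* and *ANKRD1* were both far higher in the TGF-β1 library, yet *ANKRD1* had a mean of 5.91 UMIs in the TGF-β1 cells with a UMI of *IGFBP3* and 5.82 in those without. Split the other way, *IGFBP3* had 2.48 UMIs in the TGF-β1 cells with a UMI of *ANKRD1* and 1.61 in those without, and was found in 41.6% and 36.3% of them. In TGF-β1 cells with a UMI of *AREG*, a ligand of the epidermal growth factor receptor, *ANKRD1* had 8.12 UMIs against 5.19 in those without. In the 180 control cells with a UMI of the adhesion molecule *VCAM1*, *ANKRD1* had 0.267 UMIs against 0.752 in the others. These values describe cells of 1 library each, and no test was made.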
